A study of Mus musculus with 24 samples.

Results

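Transcripts of 10 UDP-glucuronosyltransferase (UGT) genes were followed in hepatocytes of young and old mice fed a normal diet (ND) or a high-fat diet (HFD). The genes were chosen by symbol and comprised Ugt1a1, Ugt1a9, Ugt2a3, Ugt2b1, Ugt2b5, Ugt2b34, Ugt2b35, Ugt2b36, Ugt2b37 and Ugt2b38, which are 10 of the 55421 genes in the count table. All 10 were found, and all 10 passed the filter on low counts that left 13583 genes for testing. Hepatocytes had been isolated by liver perfusion from 24 male mice, 6 on each diet at each age, giving the groups young ND, old ND, young HFD and old HFD. Young mice were C57BL/6N and 6 months old according to the labels, and old mice were C57BL/6J and 24 months old, and age therefore cannot be told apart from substrain. The labels name no engineered allele in any group. According to the labels, ND groups ate a Teklad chow, and HFD groups ate the 58y1 diet, in which fat supplies 60% of the energy, for 9 weeks. Fat content therefore cannot be told apart from other differences between these diets. The study's text names another control diet and other ages and gives no substrain, and the labels are followed here. PolyA RNA of each mouse was sequenced. The labels place each mouse in batch 1 or batch 2 and do not say what the batches were. Each batch held 3 mice per group except for old ND, which had 2 in batch 1 and 4 in batch 2.

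UGTs are membrane enzymes of the endoplasmic reticulum that transfer glucuronic acid from UDP-glucuronic acid to small lipophilic molecules, which makes them water soluble and ready for export into bile or blood. The Ugt1a genes are alternative first exons spliced to shared downstream exons, and their products act on bilirubin, phenols and many drugs. The Ugt2 genes are separate genes in a cluster, and their products act on steroids, bile acids and drugs, with the liver as the main site of both families.

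The total counted on genes was 9200332 to 22185069 per mouse. All 8 hepatocyte markers examined were above 0 in every mouse, with summed levels from 43545 to 157730 CPM (counts scaled to the effective library size). Over all tested genes, the median correlation of a library with the others was 0.920 to 0.964 in 21 libraries and 0.877 to 0.895 in the other 3, which were old ND replicate 4 and old HFD replicates 2 and 4. Old ND replicate 4 had the lowest hepatocyte marker sum of all mice (43545 CPM, with the next lowest at 68478 CPM) and the highest sums for Kupffer cells (999.8 CPM), sinusoidal endothelial cells (529.65 CPM) and stellate cells (423 CPM). Results are therefore also given without these 3 libraries. In RNA from a cell preparation, fewer hepatocytes and less RNA per hepatocyte cannot be told apart.

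The genes lie in 2 clusters of the mouse genome (GRCm38 coordinates). Ugt1a9 spans chr1:88070800-88218997 and Ugt1a1 spans chr1:88211959-88218997, both on the forward strand, and they end in the same exons. Of the exon bases of Ugt1a1, 385 of 2224 belong to no other annotated gene, and for Ugt1a9 the number is 879 of 2190. The Ugt2 genes follow each other on chromosome 5, from Ugt2b34 (chr5:86889767-86906937, reverse strand) through Ugt2b1 (chr5:86916638-86926530, reverse), Ugt2b35 (chr5:87000860-87013275, forward), Ugt2b36 (chr5:87065927-87092555, reverse), Ugt2b5 (chr5:87124960-87140318, reverse), Ugt2b37 (chr5:87240493-87254804, reverse) and Ugt2a3 (chr5:87324972-87337195, reverse) to Ugt2b38 (chr5:87409942-87424203, reverse). Every 50-base window of the Ugt2b1 transcripts occurs in no other gene's transcript. The corresponding share was 98.6% for Ugt2b34, 99.7% for Ugt2b35 and Ugt2b36, 95.5% for Ugt2a3 and 81.7% for Ugt2b37. It was 58.3% for Ugt2b5 and 62.6% for Ugt2b38, since 34.1% of the Ugt2b38 windows also occur in Ugt2b5. Reads of Ugt2b5, Ugt2b37 and Ugt2b38 could therefore be split between near-identical copies, and their values are uncertain to that extent.

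The 3 genes with near-identical copies are also alike before their starts. RefSeq promoter windows (GRCm38.p6) run from 250 bases before to 50 bases after each start. The stretches below show how alike these genes are, each 5′ to 3′ on the strand of its gene. They are the 100 bases before the Ugt2b38 start and the most similar 100 bases, without gaps, of the Ugt2b37 and Ugt2b5 windows, with bases that differ from Ugt2b38 in capitals.
Ugt2b38 (chr5:87424204-87424303, reverse): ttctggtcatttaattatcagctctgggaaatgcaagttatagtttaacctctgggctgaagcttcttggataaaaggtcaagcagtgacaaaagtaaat
Ugt2b37 (chr5:87254803-87254902, reverse): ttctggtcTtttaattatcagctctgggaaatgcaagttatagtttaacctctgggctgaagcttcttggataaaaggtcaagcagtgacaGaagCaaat
Ugt2b5 (chr5:87140338-87140437, reverse): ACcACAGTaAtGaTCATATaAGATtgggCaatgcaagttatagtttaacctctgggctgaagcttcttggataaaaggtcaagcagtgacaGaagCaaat
Ugt2b37 differed from Ugt2b38 at 3 of these 100 bases and Ugt2b5 at 22. The whole windows of Ugt2b37 and Ugt2b38 were 94.8% identical at the best ungapped alignment, compared with 55.8% for Ugt2b5 and Ugt2b38. All 10 windows were searched on both strands for 3 patterns, in which N is any base. None of the 10 windows held TATAAA (13.6% of all windows), the xenobiotic response core GCGTG (32.4%) or the STAT5 pattern TTCNNNGAA (8.30%). A match describes letters in a window and is not evidence of binding.

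Levels of different genes were compared as CPM per kb of exon, using only the exon bases that belong to no other gene for the Ugt1a genes. In young ND mice Ugt2b5 had the highest level at 570.3 ± 94.5 CPM per kb (SD, n = 6), followed by Ugt1a1 at 366 ± 87.0, Ugt2b36 at 357 ± 57.8 and Ugt2b1 at 243 ± 48.3. Ugt2b34 (155 ± 21.4), Ugt2a3 (152 ± 24.1), Ugt2b35 (96.5 ± 12.97) and Ugt1a9 (38.8 ± 18.2) came next. Ugt2b38, at 3.65 ± 1.93, and Ugt2b37, at 0.677 ± 0.393, were far below the other 8. Ugt1a1 exceeded Ugt2b36 in 4 of 6 mice and Ugt2b34 exceeded Ugt2a3 in 4 of 6 mice, so these neighbours did not differ beyond their spread. Every other neighbour in the order was higher than the next in all 6 mice, although the ranges over mice were separate only between Ugt2a3 and Ugt2b35, between Ugt2b35 and Ugt1a9, and between Ugt1a9 and Ugt2b38. The Ugt1a1 level rests on few unshared bases and is the least certain of these values.

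The order differed between groups. Ugt2b5 was first in all 4 groups and Ugt2b37 last. In young HFD mice Ugt2b1 was at 140.3 ± 28.3 CPM per kb (SD, n = 6), beside Ugt2a3 at 140.1 ± 29.7, and in old HFD mice it was below Ugt2a3, at 123 ± 31.9 against 142 ± 47.8, with the ranges overlapping in both groups. As a share of the summed CPM of the 10 genes within each mouse, Ugt2b1 took 15.9% ± 1.29 (SD, n = 6) in young ND mice and 11.97% ± 2.16 on HFD, against 13.4% ± 1.06 in old ND mice and 11.8% ± 3.64 on HFD. Ugt2b36 took 18.8% ± 0.409, 23.2% ± 1.44, 20.2% ± 1.37 and 23.4% ± 3.06 in the same order. Ugt2b5 took 27.0% ± 0.812, 24.7% ± 1.88, 26.2% ± 1.34 and 26.6% ± 4.10. These shares are a description and were not tested.

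**Figure D1:**
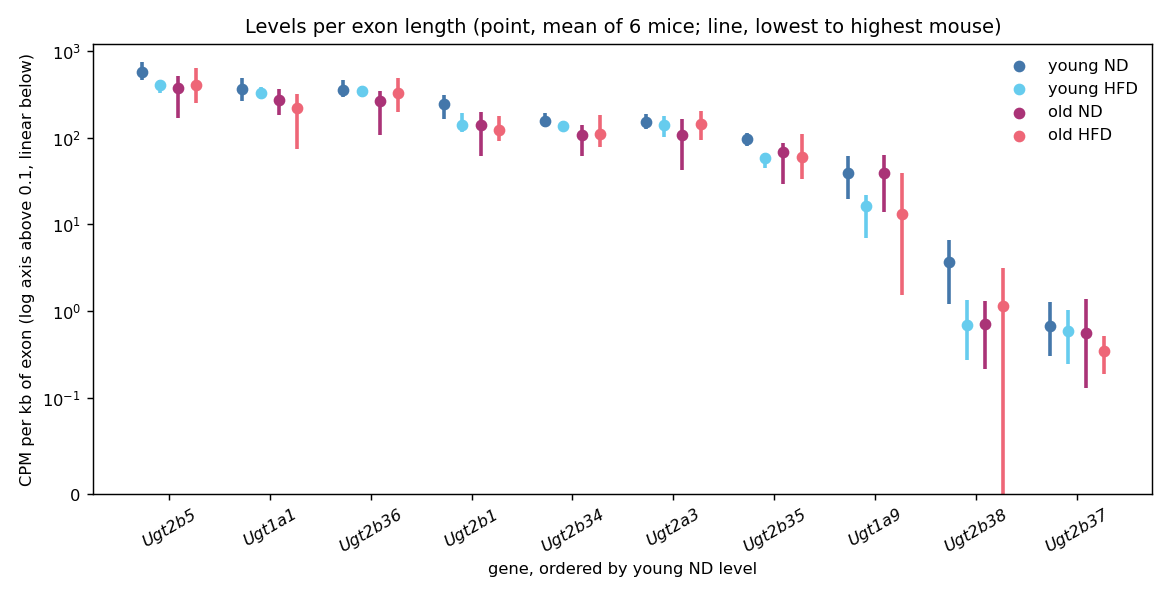
CPM per kb of exon (log axis above 0.1, linear below) of the 10 UGT genes, ordered by their young ND level, with the mean of 6 mice as a point and the lowest to highest mouse as a line for each group. In young ND the means run from 570.3 for Ugt2b5 to 96.5 for Ugt2b35, 38.8 for Ugt1a9, 3.65 for Ugt2b38 and 0.677 for Ugt2b37, and the Ugt2b38 line of old HFD reaches 0.

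The spread between mice was wider in the old groups for several genes. For Ugt2b34 the SD of log2 CPM was 0.19 in young ND and 0.14 in young HFD, compared with 0.42 in old ND and 0.48 in old HFD. Without old ND replicate 4, 1 of the libraries that stand apart, the old ND value was 0.18, no wider than in young ND, and without old HFD replicates 2 and 4 the old HFD value was 0.50. For Ugt1a9 it was 0.72 in young ND mice and 0.63 on HFD, against 0.92 in old ND mice and 1.62 on HFD (0.75 and 1.47 without these libraries). Part of that spread followed the batches. In young ND, Ugt1a9 was 43.3 to 53.3 CPM in the 3 mice of batch 1 and 17.01 to 21.6 CPM in the 3 mice of batch 2. Batch was a term in every main test.

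**Figure D2:**
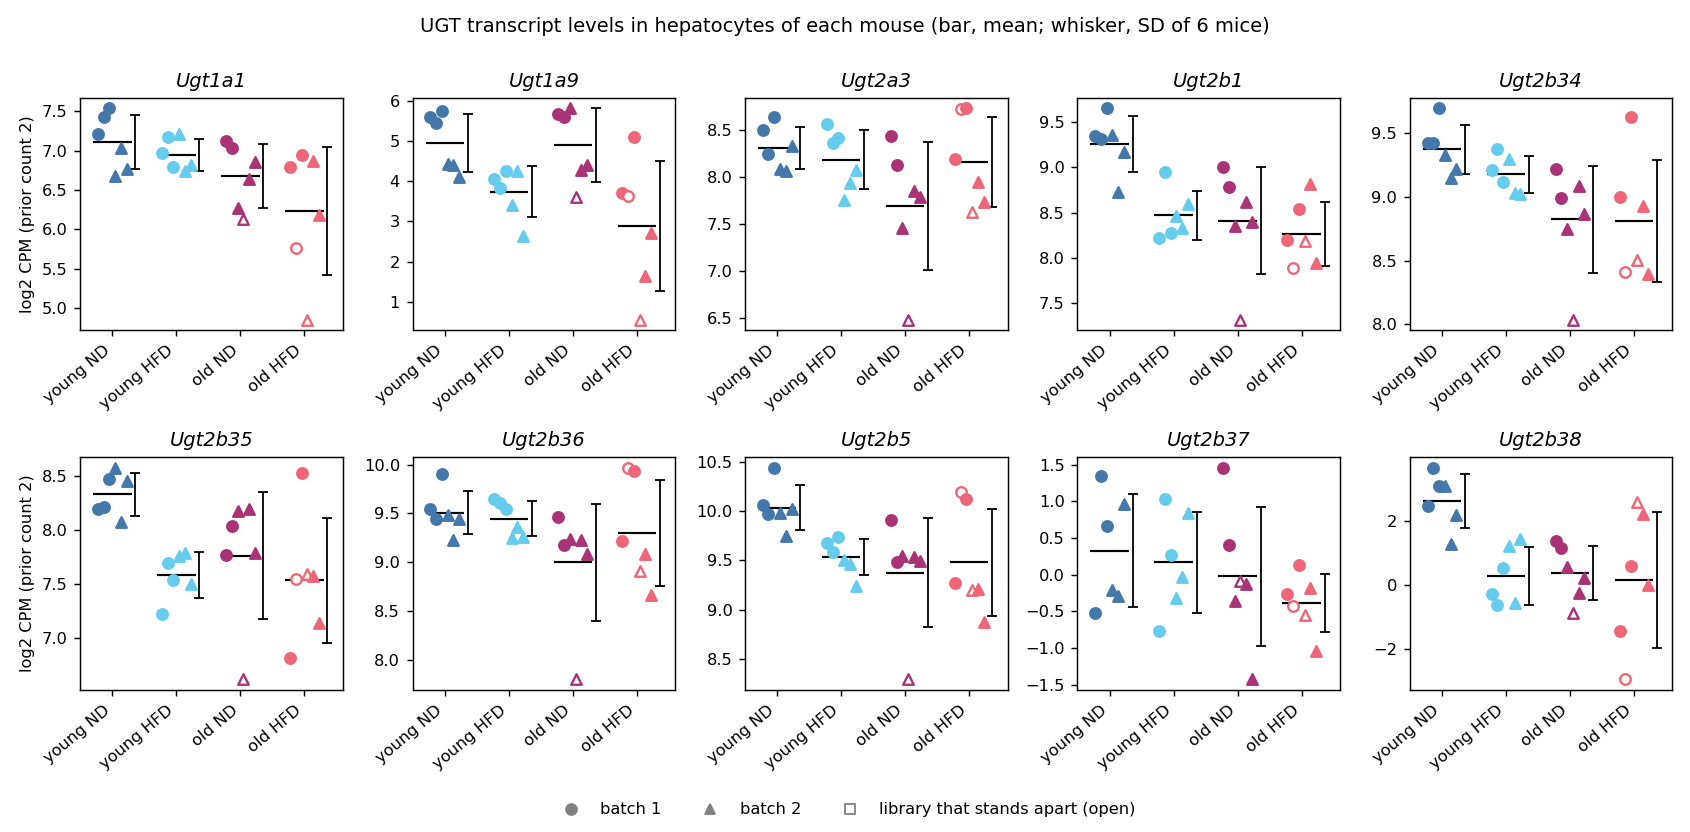
log2 CPM (with a prior count of 2) of each UGT gene in each of 24 mice, with circles for batch 1, triangles for batch 2, open symbols for the 3 libraries that stand apart, a bar for the group mean and a whisker for the SD of 6 mice. Ugt2b35 and Ugt2b5 separate young ND from young HFD mice completely, and the open triangle of old ND is the lowest old ND mouse for 9 of the 10 genes.

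Whether HFD changed UGT transcripts in young mice was examined first. Ugt2b1 and Ugt2b38 were lower in young HFD than in young ND, and no UGT gene was higher. Ugt2b1 ranged from 424 to 805 CPM (median 642) in young ND and from 299 to 494 CPM (median 337) in young HFD. Of the 6 HFD mice, 5 were below every ND mouse, and HFD replicate 2, at 494 CPM, was above the lowest ND mouse. The level fell 1.72-fold, with a log2 fold change of -0.78 (SE, the standard error, 0.21, adjusted p = 0.0398), -0.92 in batch 1 and -0.62 in batch 2. Here and below, adjusted p is from the edgeR quasi-likelihood test over 13583 genes. The SE is the value implied by the fold change and the F statistic of that test. Ugt2b38 ranged from 2.29 to 12.6 CPM (median 6.88) in young ND and from 0.509 to 2.55 CPM (median 0.993) in young HFD, and again 5 of 6 HFD mice were below every ND mouse. It fell 5.60-fold (log2 fold change -2.49, SE 0.70, adjusted p = 0.0481), with -3.39 in batch 1 and -1.49 in batch 2. The 2 genes called lower are 2 of 10, and 1.59% of all tested genes were called lower in this comparison.

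Ugt2b35 and Ugt2b5 were separated completely between the young diets without passing the test. Ugt2b35 was 270 to 382 CPM (median 324) in young ND and 150 to 221 CPM (median 197) in young HFD, with a log2 fold change of -0.74 (SE 0.23, adjusted p = 0.0746). Ugt2b5 was 858 to 1386 CPM (median 1024) in young ND and 603 to 853 CPM (median 749) in young HFD, with a log2 fold change of -0.51 (SE 0.19, adjusted p = 0.1195). All 6 HFD mice were below all 6 ND mice for both genes, which held for 3.06% of tested genes. Ugt1a9, which conjugates phenols, was 17.01 to 53.3 CPM (median 32.5) in young ND and 6.05 to 18.97 CPM (median 15.3) in young HFD. Its log2 fold change was -1.12 (SE 0.39, adjusted p = 0.0977), -1.55 in batch 1 and -0.73 in batch 2, and 4 of 6 HFD mice were below every ND mouse.

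The other 5 genes had log2 fold changes from -0.19 to -0.07 between the young diets, so that all 10 values were negative. The median over the 10 genes was -0.35, and the median over all tested genes was 0.01. Ugt1a1, the bilirubin-conjugating form, had a value of -0.15 (SE 0.23), negative in batch 1 (-0.41) and positive in batch 2 (0.13). The calls of Ugt2b1 and Ugt2b38 were sensitive to single mice. No UGT gene was called when young ND replicate 1, 2, 3, 4 or 6, young HFD replicate 1, 3, 5 or 6, or old ND replicate 2 was left out, and 1 was called without young HFD replicate 2, old ND replicate 3 or old HFD replicate 3. With a replicate block instead of batch, 0 were called, with adjusted p = 0.0685 for Ugt2b1 and 0.086 for Ugt2b38. Without the 3 libraries that stand apart, all of which are from old mice and enter this comparison through the shared estimate of spread, 5 were called lower (Ugt1a9, Ugt2b1, Ugt2b5, Ugt2b35 and Ugt2b38), against 7.33% of genes. Of the 30 tested markers of other cell types 3 were higher in young HFD, against 259 of all 13583 tested genes. Kupffer cell sums were 11.9 to 166 CPM in young HFD and 1.14 to 63.9 CPM in young ND, and 0 of the 8 hepatocyte markers were called. The part of the markers in the UGT values was not tested.

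In old mice Ugt1a9 was the UGT gene called lower on HFD. Ugt1a9 ranged from 12.1 to 56.1 CPM (median 34.7) in old ND and from 1.34 to 33.98 CPM (median 9.38) in old HFD. The groups overlapped, and 3 of 6 old HFD mice were below every old ND mouse. The level fell 4.06-fold, with a log2 fold change of -2.02 (SE 0.41, adjusted p = 0.0109), -1.38 in batch 1 and -2.89 in batch 2. This is 1 of 10 genes, and 1.64% of tested genes were called lower. The gene was called in all 24 fits that left out 1 mouse, and without the 3 libraries that stand apart the change was -1.79 (adjusted p = 0.0198). It was not called without the batch term, at -1.57, with only the old mice in the fit, at -2.20, or in batch 1 or batch 2 alone. Between the old diets 0 of the 30 tested markers of other cell types were called, and of the 8 hepatocyte markers 1 was higher on HFD. Of all 13583 tested genes 186 were called higher.

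No other UGT gene was called between the old diets. Ugt1a1 was -0.38 (SE 0.23, adjusted p = 0.345), with old HFD replicates 4 and 2 lowest at 28.8 and 54.1 CPM and old ND from 70.0 to 139 CPM. Both these libraries stand apart, and without the 3 such libraries Ugt1a1 was -0.11 (adjusted p = 0.803). Ugt2a3 (0.32, SE 0.17), Ugt2b36 (0.19, SE 0.19) and Ugt2b5 (0.01, SE 0.19) had log2 fold changes above 0, and for each of them old HFD replicates 2 and 3 were above every old ND mouse. Replicate 2 stands apart, and without the 3 such libraries the direction turned for Ugt2b36 (-0.0069) and Ugt2b5 (-0.21), and Ugt2a3 was 0.18. Ugt2b38 was -2.14 in batch 1 and 2.08 in batch 2, with a fitted value of 0.55 (SE 0.71) over both. For none of the 10 genes were the old diet groups separated completely. Complete separation with old HFD lower held for 0.788% of tested genes, and the share with old HFD higher was not counted.

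With age on ND, Ugt2b1 and Ugt2b38 were again the UGT genes called lower. Ugt2b1 was 160 to 514 CPM (median 366) in old ND, against the young ND values above, and 4 of 6 old mice, those of batch 2, were below every young mouse. The level fell 1.69-fold (log2 fold change -0.76, SE 0.21, adjusted p = 0.0225), -0.53 in batch 1 and -0.87 in batch 2. Ugt2b38 was 0.408 to 2.47 CPM (median 1.199) in old ND, with 5 of 6 old mice below every young mouse, and fell 5.20-fold (log2 fold change -2.38, SE 0.69, adjusted p = 0.0327), -1.92 in batch 1 and -2.49 in batch 2. These are 2 of 10 genes, against 1.24% of tested genes called lower. This comparison and the young diet comparison share the young ND mice, so their results for Ugt2b1 and Ugt2b38 are not independent.

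Among the remaining genes, Ugt2b5 (-0.54), Ugt2b34 (-0.47), Ugt2a3 (-0.47) and Ugt2b35 (-0.49) had log2 fold changes with adjusted p from 0.0801 to 0.221, and Ugt1a9 was 0.31 (SE 0.38). The median over the 10 genes was -0.47, against 0.01 over all tested genes. Old ND replicate 4 was the lowest old ND mouse for 9 of the 10 genes. Without old ND replicate 4, 1 gene was called. The count was also 1 without young ND replicate 2 or old ND replicate 3 or 6, and 0 without young ND replicate 3 or 4. With the 3 libraries that stand apart left out, Ugt2b1 was -0.64 (adjusted p = 0.0237) and Ugt2b38 was -2.20 (adjusted p = 0.0231), and Ugt2b5 was also called, at -0.44 (adjusted p = 0.0491). With the replicate block, Ugt2b38 was no longer called (adjusted p = 0.0611), and Ugt2a3 was, at -0.58 (adjusted p = 0.0466). None of the 10 genes separated these groups completely. Complete separation with old ND lower held for 1.72% of tested genes, and the share with old ND higher was not counted.

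Markers of other cell types moved with age. Of 38 such markers 30 were tested, and 23 were higher and 0 lower in old ND compared with young ND, including all 6 Kupffer cell markers. Of all 13583 tested genes 986 were called higher and 169 lower. The summed Kupffer cell markers were 1.14 to 63.9 CPM in young ND and 50.5 to 999.8 CPM in old ND, the endothelial sums 8.93 to 104 and 27.0 to 529.65 CPM, and the stellate cell sums 5.91 to 75.1 and 76.2 to 423 CPM. The B cell marker Cd79a was at 0 in every young ND mouse. Of the 8 hepatocyte markers, 0 were called in this comparison, and their sum had a median of 122950 CPM in young ND and 122870 CPM in old ND. The part of these transcripts in the UGT values was not tested.

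Between old and young mice on HFD no UGT gene was called, while 0.42% of tested genes were called lower. At an unadjusted p under 0.05 there was 1 gene, Ugt1a1 (log2 fold change -0.59, SE 0.23, adjusted p = 0.153), which is 1 of 10 against 21% of tested genes, and DESeq2 called 0. Ugt1a1 was 106 to 148 CPM (median 119) in young HFD and 28.8 to 123 CPM (median 91.6) in old HFD, with 3 of 6 old mice below every young mouse. It passed when old HFD replicate 5 was left out (-0.80, adjusted p = 0.0387). Of the 3 old mice below every young mouse, replicates 2 and 4 (54.1 and 28.8 CPM) are libraries that stand apart, and without the 3 such libraries the log2 fold change of Ugt1a1 was -0.26 (adjusted p = 0.516). Ugt2b5 (-0.02), Ugt2a3 (-0.01) and Ugt2b35 (0.04) had the fitted values closest to 0, with standard errors of 0.19, 0.17 and 0.23. None of the 10 genes separated these groups completely. Complete separation with old HFD lower held for 0.25% of tested genes, and the share with old HFD higher was not counted.

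In the main fit the largest number of UGT genes was called between old HFD and young ND, where both age and diet differ. Of the 10 genes 6 were lower (Ugt1a1, Ugt1a9, Ugt2b1, Ugt2b5, Ugt2b34 and Ugt2b35) and 0 were higher, against 12.9% of tested genes called lower. With only the compared groups in the fit, 2 were called here and 5 between the young diets. Without the 3 libraries that stand apart 5 were called in each of these comparisons. Ugt1a9 was 1.34 to 33.98 CPM in old HFD and 17.01 to 53.3 CPM in young ND, with 5 of 6 old HFD mice below every young ND mouse, and fell 3.26-fold (log2 fold change -1.71, SE 0.40, adjusted p = 0.0035). Ugt2b1 was 237 to 452 CPM (median 294) in old HFD, with 5 of 6 mice below every young ND mouse, and fell 1.95-fold (log2 fold change -0.97, SE 0.21, adjusted p = 0.00201). Both were negative in both batches, at -1.32 and -2.44 for Ugt1a9 and at -1.24 and -0.73 for Ugt2b1.

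Ugt1a1 was 102 to 186 CPM (median 139) in young ND and fell 1.66-fold in old HFD (log2 fold change -0.73, SE 0.23, adjusted p = 0.02), where replicates 4, 2 and 6 were below every young ND mouse. Ugt2b35 was 113 to 368 CPM (median 189) in old HFD and fell 1.63-fold (log2 fold change -0.71, SE 0.23, adjusted p = 0.0263). Ugt2b34 was 568 to 829 CPM (median 665) in young ND and 337 to 792 CPM (median 425) in old HFD, giving a log2 fold change of -0.51 (SE 0.17, adjusted p = 0.0284). Old HFD replicate 3 was the only old HFD mouse within the young ND range for both Ugt2b34 and Ugt2b35. Ugt2b5 was 470.45 to 1170.1 CPM (median 604) in old HFD, giving a log2 fold change of -0.52 (SE 0.19, adjusted p = 0.0396), -0.28 in batch 1 and -0.80 in batch 2.

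The remaining 4 genes were not called between old HFD and young ND. Ugt2b38 was 0 to 5.92 CPM (median 1.12) in old HFD, with a log2 fold change of -1.83 (SE 0.71, adjusted p = 0.0529), -4.06 in batch 1 and -0.41 in batch 2. Old HFD replicate 2 had no Ugt2b38 count, which allows up to 0.23 CPM at 3 counts, while the same library held 15232 counts of Ugt2b5, and Ugt2b38 is reported beside Ugt2b5 because their reads could be split. The Ugt2b38 count as a share of the Ugt2b5 count was 0.267% to 1.25% in young ND mice and 0.066% to 0.423% on HFD, against 0.0964% to 0.294% in old ND mice and 0% to 1.004% on HFD. Ugt2b37, at 0.658 ± 0.204 CPM (SD, n = 6) in old HFD and 1.28 ± 0.744 in young ND, had a log2 fold change of -0.97 (SE 0.47, adjusted p = 0.116) on 5 to 12 counts per old HFD mouse and 12 to 36 per young ND mouse. Ugt2a3 (-0.15, SE 0.17) and Ugt2b36 (-0.18, SE 0.19) had values of 0.07 each in batch 1 and of -0.38 and -0.48 in batch 2.

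The median log2 fold change over the 10 genes was -0.72 between old HFD and young ND, against 0.04 over all tested genes. In all 24 fits that left out 1 mouse, Ugt1a1, Ugt1a9 and Ugt2b1 were called. Ugt2b35 was called in 20 (not without young ND replicate 4 or old HFD replicate 1, 4 or 6), Ugt2b34 in 19 (not without young ND replicate 3 or 4 or old HFD replicate 2, 4 or 6) and Ugt2b5 in 14 (not without young ND replicate 3, 4 or 6, young HFD replicate 1 or 5, old ND replicate 2, or old HFD replicate 1, 4, 5 or 6). The number called fell to 3 without young ND replicate 4 or old HFD replicate 6. Without the 3 libraries that stand apart 5 were called lower, against 11% of genes. Ugt1a1 (-0.42, adjusted p = 0.0509) and Ugt2b34 (-0.37, adjusted p = 0.0545) were then not called, and Ugt2b38 was (-2.06, adjusted p = 0.0232). With the replicate block, Ugt2b5 had an adjusted p of 0.0543. None of the 10 genes separated these groups completely. Complete separation with old HFD lower held for 4.27% of tested genes, and the share with old HFD higher was not counted. Of the 30 tested markers of other cell types 27 were higher in old HFD compared with young ND, against 2345 of all 13583 tested genes. Kupffer cell sums were 72.4 to 549 CPM in old HFD. Of the 8 hepatocyte markers 2 were higher and 3 lower, where 12.9% of tested genes were called lower. The sum of these 8 markers had a median of 85270 CPM in old HFD. The part of these markers in the UGT values was not tested.

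**Figure D3:**
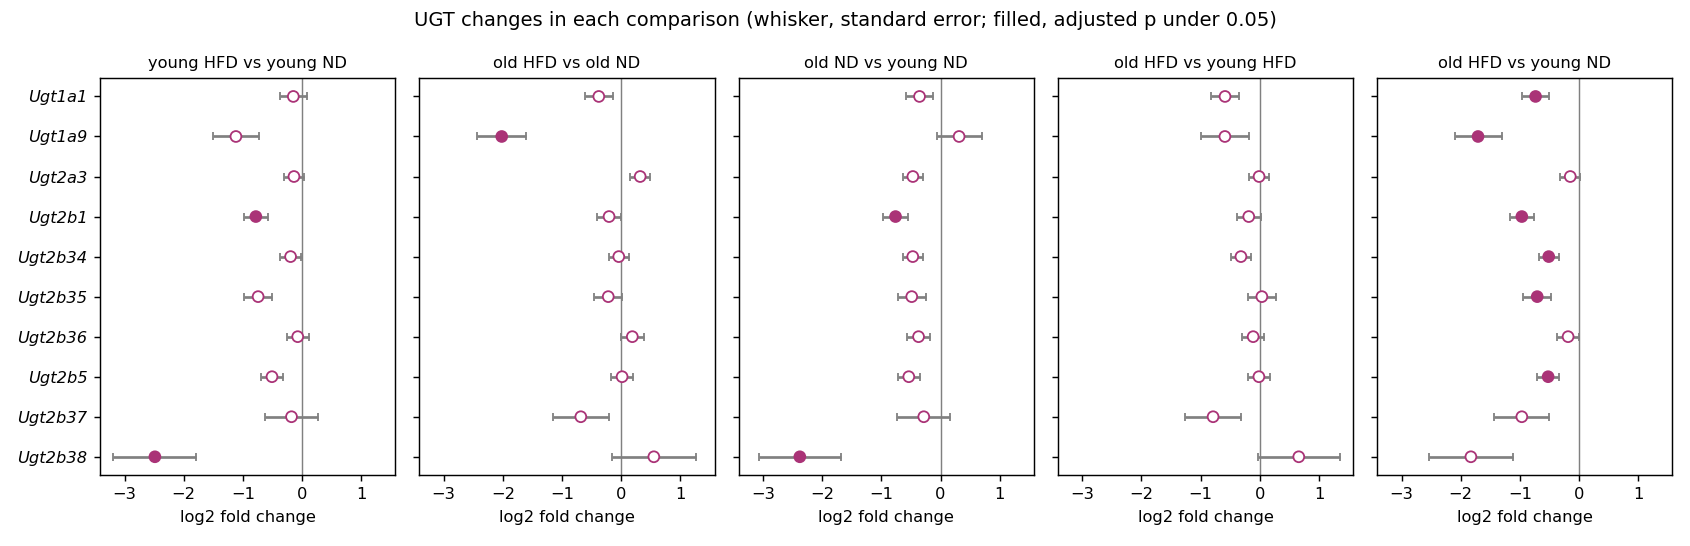
log2 fold change of each UGT gene in 5 comparisons, first-named group over second, with the SE as a whisker and filled points for adjusted p under 0.05. All filled points lie to the left of 0, from Ugt2b38 at -2.49 to Ugt2b34 at -0.51, and the panel of old HFD over young HFD has none.

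Whether the effect of HFD differed with age was tested as an interaction, the old diet difference minus the young one. No UGT gene was called by edgeR, and none of the 13583 genes was (0.0%), of which 1247 (9.18%) had an unadjusted p under 0.05. Of the UGT genes 1 had an unadjusted p under 0.05, Ugt2b38, with an interaction of 3.04 (SE 0.97, adjusted p = 0.531), 1.25 in batch 1 and 3.57 in batch 2. DESeq2 called 0 of the 10 and 4 genes in all. Ugt1a9 had an interaction of -0.90 (SE 0.56, adjusted p = 0.62), 0.18 in batch 1 and -2.16 in batch 2. The call of Ugt1a9 in old mice and its absence in young mice therefore does not show that the diet effect differed with age.

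The levels of several Ugt2 genes were correlated across mice. After subtraction of batch means from log2 CPM over 24 mice, Pearson r was 0.89 between Ugt2a3 and Ugt2b36, 0.88 between Ugt2b5 and Ugt2b36, 0.86 between Ugt2b5 and Ugt2b35, and 0.81 between Ugt2b1 and Ugt2b34. Without the 3 libraries that stand apart, these were 0.68, 0.81, 0.87 and 0.68. Ugt2b1 and Ugt2b38 had r = 0.79, and 0.83 over the 21 mice. Ugt1a1 and Ugt1a9, which share their downstream exons, had r = 0.54, and 0.08 over the 21 mice, and the first value rested on those 3 libraries. The points share library, depth and group, reads of near-identical genes could be split, and the correlations are descriptions without a test.

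**Figure D4:**
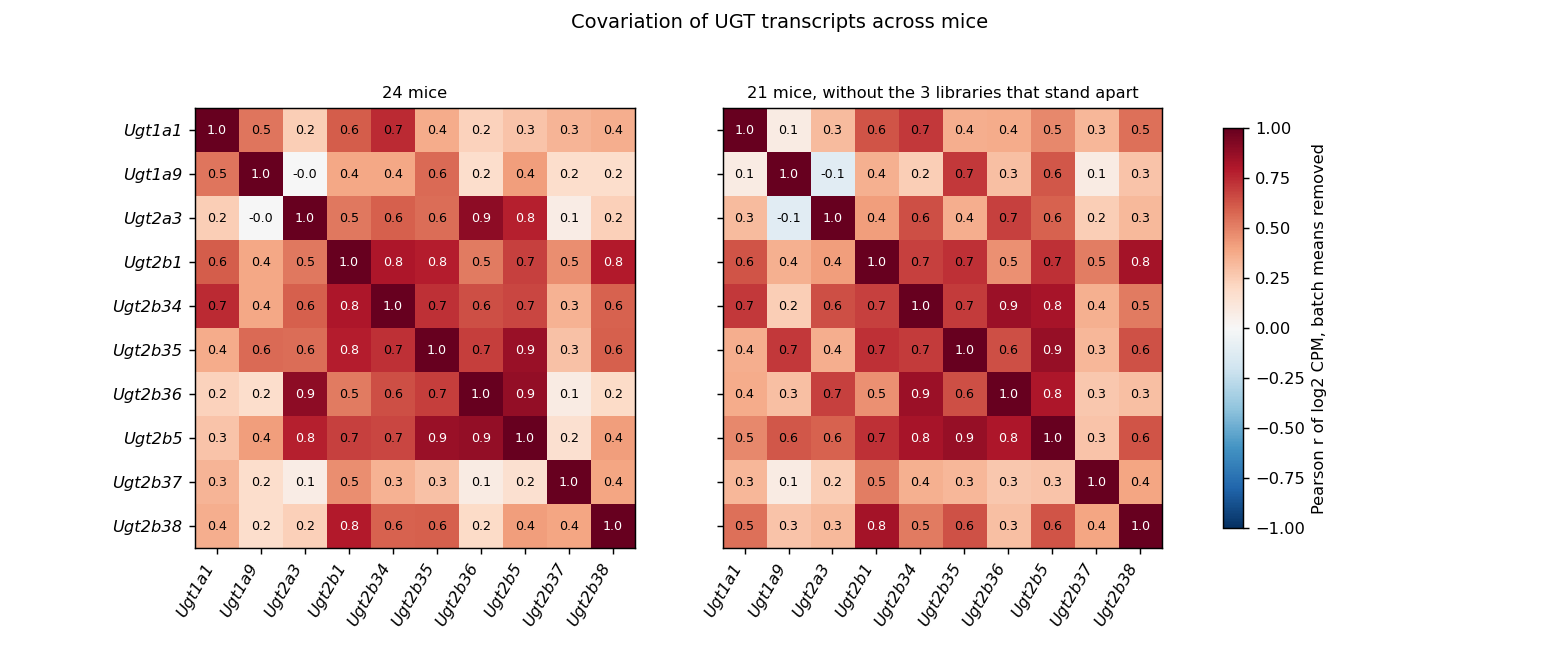
Pearson r of log2 CPM between UGT genes after removal of batch means, over 24 mice on the left and over 21 mice without the 3 libraries that stand apart on the right. Values among Ugt2b1, Ugt2b34, Ugt2b35, Ugt2b36 and Ugt2b5 lie between 0.52 and 0.88 on the left and between 0.46 and 0.87 on the right, and the Ugt1a1 and Ugt1a9 value drops from 0.54 to 0.08.

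Outside the UGT family, the genes whose pattern over 24 mice was most like each UGT gene were found by the same measure. These r values are the highest among all tested genes outside the family and span all groups. They were not computed without the 3 libraries that stand apart. Ugt2b1 was most like Cyp4a12a, a male-specific fatty acid hydroxylase (r = 0.90), and Abca8a, a transporter (r = 0.89). Ugt1a9 was most like Gstm3, a glutathione transferase (r = 0.87), and Cyp3a59, a cytochrome P450 (r = 0.86). Ugt1a1 was most like Farp2 and Chdh, a choline dehydrogenase (r = 0.96 for each). Ugt2b5 was most like Ces1f, a carboxylesterase (r = 0.88), and Ugt2b35 like Gm18635 (r = 0.90) and Nat8, an N-acetyltransferase (r = 0.83). Ugt2b38 was most like Serpina3k (r = 0.87) and Mug1 (r = 0.85), both secreted protease inhibitors. Ugt2a3 and Ugt2b36 were both close to Pex13, a peroxisome assembly factor (r = 0.89 and 0.93), and Ugt2b34 to Sfmbt1 (r = 0.93). Ugt2b37, with the fewest counts, had no close match, and Phospho1, a phosphatase, was among its 2 most alike genes (r = 0.62).

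Of 12 other UGT genes, 7 had enough counts to be tested. Ugt2a1 and Ugt2a2 had 0 counts in all mice, and Ugt1a2, Ugt1a8 and Ugt8a had at most 16 counts over all mice. Between old HFD and young ND 3 were lower, all from the Ugt1a cluster, against 12.9% of tested genes called lower. Ugt1a6b, which conjugates planar phenols, was 47.0 to 74.8 CPM (median 55.4) in young ND and 6.56 to 52.1 CPM (median 24.0) in old HFD, with a log2 fold change of -1.18 (SE 0.27, adjusted p = 0.00312), -1.03 in batch 1 and -1.36 in batch 2. Ugt1a5 was 29.0 to 50.7 CPM (median 35.2) in young ND and 1.92 to 54.4 CPM (median 11.8) in old HFD (log2 fold change -1.17, SE 0.44, adjusted p = 0.0478), and old HFD included a mouse above every young ND mouse. Its call held in 5 of 24 fits that left out 1 mouse and not without the 3 libraries that stand apart (-0.71, adjusted p = 0.14). Ugt1a10 was 0.229 to 0.94 CPM in young ND and 0 to 0.242 CPM in old HFD (adjusted p = 0.00745), with counts in 18 of 24 mice. Ugt3a2, which lies outside both clusters on chromosome 15, was the only other UGT gene called with age on ND (log2 fold change -0.52, SE 0.16, adjusted p = 0.041), held in 11 of 24 fits that left out 1 mouse. Without the 3 libraries Ugt1a6b was also called lower with age on ND (-0.69, adjusted p = 0.019) and between the young diets (-0.57, adjusted p = 0.0248). Ugt1a6b was lower in all 6 old ND mice than in every young ND mouse (adjusted p = 0.0969 with all mice), which held for 1.72% of tested genes. Ugt1a7c was lower in all 6 old HFD mice (0 to 0.553 CPM) than in every old ND mouse (0.564 to 1.77 CPM). This held for 0.788% of tested genes, and Ugt1a7c had 234 counts over all mice. With all mice, edgeR called 0 of the 7 between diets at either age. At an unadjusted p under 0.05 these included 1 gene in young mice (Ugt1a6b, log2 fold change -0.56) and 3 in old mice (Ugt1a10, -3.02, Ugt1a7c, -1.46 and Ugt1a5, -1.20), all lower on HFD, with the smallest adjusted p of 0.0528 for Ugt1a10 in old mice. These are 1 and 3 of 7 genes, against 21.2% of tested genes in young and 22% in old mice. In old mice Ugt1a5 was -0.74 (adjusted p = 0.318) without the 3 libraries that stand apart.

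Genes that supply the co-substrate, move glucuronides or regulate hepatocyte genes were then read in 6 lists that hold 38 genes, of which 36 were tested. Between old HFD and young ND 11 were lower and 1 was higher, against the 12.9% of tested genes called lower. Ugdh, the dehydrogenase that makes UDP-glucuronic acid, was 223 to 330.1 CPM (median 231) in young ND and 131 to 199 CPM (median 159) in young HFD, with all 6 HFD mice below all 6 ND mice (log2 fold change -0.68, SE 0.18, adjusted p = 0.0377, called in 13 of 24 fits that left out 1 mouse). It was also lower in old HFD compared with young ND (-0.62, SE 0.18, adjusted p = 0.0125). Ugdh was the only gene of the 7 in the supply list that passed in any of the 6 comparisons, although without the 3 libraries that stand apart Pgm2 was also called between old HFD and young ND (0.93, adjusted p = 0.00787, against 0.61 with all mice).

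Of 4 genes of glucuronide export 3 were lower in old HFD compared with young ND, and of 3 genes of reuptake 1 was. In this comparison 12.9% of tested genes were called lower. Abcc2, which exports conjugates into bile, was 143 to 521 CPM (median 333) in old HFD and 479.7 to 623 CPM (median 515) in young ND, a log2 fold change of -0.66 (SE 0.20, adjusted p = 0.0177) and of -0.41 without the 3 libraries that stand apart (adjusted p = 0.0181). Abcc3, which exports them into blood, was -0.58 (SE 0.20, adjusted p = 0.0291), and Abcg2 was -0.39 (SE 0.13, adjusted p = 0.0277). Abcg2 was also lower with age on ND, with all 6 old mice below all 6 young mice (-0.66, SE 0.13, adjusted p = 0.00445), in all 24 fits that left out 1 mouse. Slco1a1, a male-predominant uptake carrier, was 554 to 804 CPM (median 646) in young ND and 35.3 to 498 CPM (median 189) in old HFD, with no overlap and a log2 fold change of -1.60 (SE 0.40, adjusted p = 0.00583). Slco1b2 was higher in old HFD compared with old ND (0.60, SE 0.17, adjusted p = 0.0487), which held in 5 of 24 fits that left out 1 mouse and not without the 3 libraries that stand apart (0.35, adjusted p = 0.239). None of the 4 tested genes that cleave glucuronides or use glucuronate passed in any comparison with all mice, and without the 3 libraries Akr1a1 did between old HFD and young ND (-0.23, adjusted p = 0.0444).

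Of 13 xenobiotic and hepatocyte regulators, 4 were lower in old HFD compared with young ND and 0 were higher, against 12.9% of tested genes called lower. Hnf4a, a nuclear receptor that maintains hepatocyte genes, had no overlap between the groups and a log2 fold change of -0.73 (SE 0.18, adjusted p = 0.00534), with -0.71 in batch 1 and -0.76 in batch 2. It was -0.46 without the 3 libraries that stand apart (adjusted p = 0.00867). Foxa1 (-0.99, SE 0.27), Nr1i2, the xenobiotic receptor PXR (-0.45, SE 0.14, and not called without the 3 libraries, at -0.28, adjusted p = 0.12), and Arnt, the partner of the aryl hydrocarbon receptor (-0.38, SE 0.11), were also lower. Arnt was in addition lower in old HFD compared with old ND (-0.50, SE 0.11, adjusted p = 0.017). Without the 3 libraries Arnt was -0.40 there and was not called (adjusted p = 0.0529). Nr1i3, the receptor CAR, and Ahr did not pass in any comparison with all mice. When the 3 libraries were left out, 3 regulators of this list were called between young HFD and young ND, with Nr1i3 higher (0.61, adjusted p = 0.0315) and Hnf4a (-0.45, adjusted p = 0.00982) and Onecut1 (-1.41, adjusted p = 0.0488) lower. In that fit 1980 of 13892 genes were called in this comparison, 962 higher and 1018 lower.

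Of the 5 tested regulators of sex-dependent liver genes, Stat5b and Zhx2 were lower in old HFD compared with young ND and Trim24 was higher. Of all 13583 tested genes 1755 were called lower and 2345 higher in this comparison. Stat5b, which carries the growth hormone signal, was 48.3 to 66.3 CPM in young ND and 23.05 to 46.3 CPM in old HFD, with no overlap (log2 fold change -0.58, SE 0.15, adjusted p = 0.00556). Zhx2 was -0.51 (SE 0.14, adjusted p = 0.0104). Trim24 was 10.9 to 16.2 CPM (median 13.5) in young ND and 14.9 to 46.7 CPM (median 32.0) in old HFD (1.13, SE 0.28, adjusted p = 0.00562). Without the 3 libraries Stat5b (-0.39, adjusted p = 0.0271) and Zhx2 (-0.42, adjusted p = 0.00844) were also called lower between young HFD and young ND, Zhx2 between old HFD and old ND (-0.48, adjusted p = 0.0354), and Ghr, the growth hormone receptor, between old ND and young ND (-0.33, adjusted p = 0.0379). No link between these regulators and the UGT genes was tested.

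**Figure D5:**
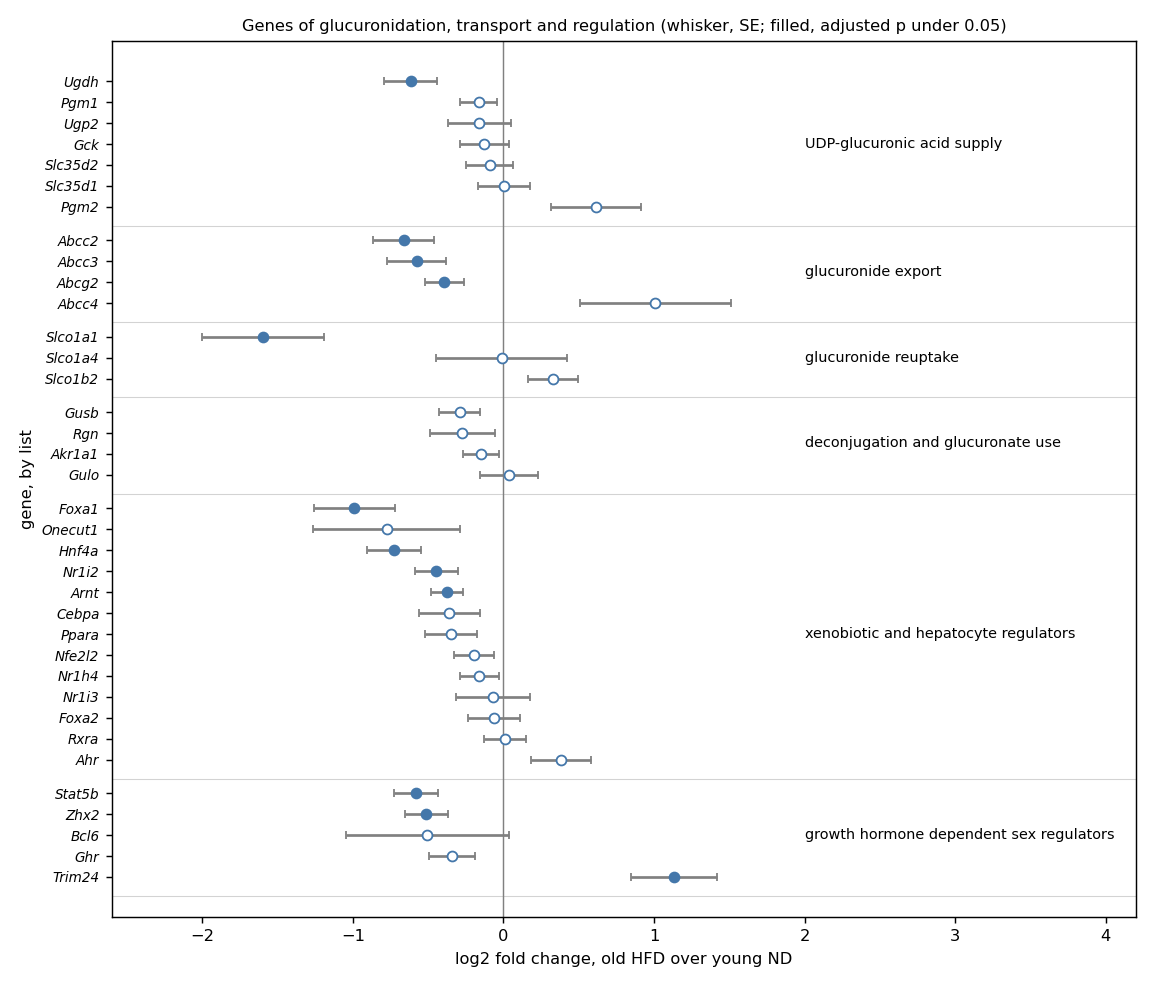
log2 fold change of 36 genes of UDP-glucuronic acid supply, glucuronide transport and use, and hepatocyte regulation between old HFD and young ND, grouped by list, with the SE as a whisker and filled points for adjusted p under 0.05. Of the filled points 11 lie below 0, from Slco1a1 at -1.60 to Arnt at -0.38, and Trim24 alone lies above 0.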

How the data were processed

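Per the labels, hepatocytes were isolated by perfusion from 24 male mice and polyA RNA was sequenced, and ages and substrains are given here as the labels state them. The authors aligned reads with STAR 2.7.3a to mm10 (Gencode vM23), checked them with FastQC 0.11.8, counted genes with HTSeq 0.11.2, and deposited raw counts per gene. The strand and overlap settings are not given in the sources used here. The authors also deposited FPKM values, adjusted for batch. Over 6063 genes the length these FPKM values imply had a median ratio of 0.954 to the gene span and of 5.05 to the exon length, so the FPKM values served only as an alternative and levels between genes are CPM per kb of exon. Of the deposited columns, 0 lacked a sample.

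The counts were tested with edgeR 4.0.16 in R 4.3.3 (quasi-likelihood, TMM, filterByExpr with a minimum count of 10) on all 24 mice, with group and batch as terms and Benjamini-Hochberg adjustment over 13583 genes at 0.05. Every adjusted p is from this fit unless another is named. The steps were tested on simulated data. Total counts of 9200332 to 22185069 per mouse set the precision, and the limit given for a count of 0 is 3 counts and covers counting error only. Alternatives were DESeq2 1.42.0, limma 3.58.1 on log2(FPKM + 1) and log2(FPKM + 0.1), RLE factors, no filter, no batch term, a replicate block, only the groups compared, each batch alone, and each mouse left out. Leaving out the 3 libraries with a median correlation under 0.9 was added after the data had been seen. Sequence work used Python 3.11.15 and RefSeq promoter windows (GRCm38.p6), of which all 10 genes had one.

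The members and gene lists were chosen with earlier results of these data known. All 10 members are named, with every gene of the pathway lists past the threshold in any comparison and the 2 genes most like each member. Results for 2 genes that these rules would name are not reported here, and 1 of them was left out of its list. Same-numbered mice of different groups are different animals. The deviations of 36 such pairs had a mean correlation of 0.182 (-0.320 to 0.551), and of -0.0399 once batch means were removed, so the numbers were not taken to pair the mice.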

Additional observations from a re-analysis of the deposited data

Results flagged for a closer look

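Old ND replicate 4 lay far below the other 5 old ND mice for 3 of the 10 UGT genes. Its log2 CPM was 8.30 for Ugt2b5 (others 9.49 to 9.91), 6.62 for Ugt2b35 (others 7.77 to 8.19) and 7.80 for Ugt2b36 (others 9.09 to 9.47). Each gap to the nearest mouse was over Dixon's 95% critical value for groups of 6. Of 40 combinations of gene and group checked 3 passed this value, and chance passes about 1 in 20. The same mouse had the lowest hepatocyte marker sum (43545 CPM), and the part of this in its UGT levels was not tested.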

How the results depend on the processing

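The number of the 10 UGT genes called depended on the processing, while 0 of the 396 repeats of single called results changed direction, 299 kept their call and 97 lost it. Between the young diets, with 2 called, the count was 0 without the batch term, with a replicate block instead of batch, in batch 1 alone, in batch 2 alone and by limma with no filter, 1 with RLE factors, 4 with no count filter, and 5 with only the compared groups or without the 3 libraries that stand apart. Over all genes, in either direction, 475 of 13583 were called in the main fit, 174 without the batch term, 283 with the block and 465 with RLE factors. The counts were 130 of 13543 in batch 1, 9 of 14243 in batch 2 and 152 of 26244 by limma with no filter. They were 1473 of 32336 with no count filter, 2302 of 12353 with only the compared groups and 1980 of 13892 without the 3 libraries. Between the old diets, with 1 called, the UGT count was 0 without the batch term, with only the compared groups and in either batch alone. Over all genes 409 of 13583 were called in the main fit and 266 without the batch term. With only the compared groups 15 of 12587 were called, in batch 1 alone 15 of 13543 and in batch 2 alone 16 of 14243. With age on ND, with 2 called, the UGT count was 1 without the batch term and by limma on log2(FPKM + 1), 0 by limma with no filter and in either batch alone, and 4 with no count filter. Over all genes 1155 of 13583 were called in the main fit, 628 without the batch term and 252 of 13195 by limma. The counts were 39 of 26244 by limma with no filter, 93 of 13543 in batch 1, 2 of 14243 in batch 2 and 2053 of 32336 with no count filter. On HFD and in the interaction, with 0 called, the UGT count was 2 with no count filter, where 1235 and 587 of 32336 genes were called. Between old HFD and young ND, with 6 called, the UGT count was 2 with only the compared groups, 3 in batch 1 alone and 1 in batch 2 alone. Over all genes 4100 of 13583 were called in the main fit and 2094 of 12034 with only the compared groups. In batch 1 alone 919 of 13543 were called and in batch 2 alone 617 of 14243. Leaving out 1 mouse gave 0 to 3 between the young diets, 1 to 1 between the old diets, 0 to 3 with age on ND, 0 to 1 on HFD, 3 to 7 between old HFD and young ND, and 0 to 0 for the interaction. The causes were not tested.

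The replicate numbers mark different mice. With the replicate block, the counts in the comparisons other than the young diets stayed within 1.5 times. Over all genes, old HFD against young ND gave 2345 higher and 1755 lower, and 1360 higher and 1709 lower by limma on log2(FPKM + 1). Depth limits Ugt2b37 and Ugt2b38, which had 384 and 1115 counts over all mice.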
